A study of Rattus norvegicus with 12 samples.

Results

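The genes described here are 10 markers of tubular injury and dedifferentiation of the kidney, read in the renal cortex of rats given bromodichloromethane (BDCM), a trihalomethane that forms when drinking water is chlorinated. They are the injury markers Havcr1, Spp1, Gpnmb, Lcn2 and Clu, the dedifferentiation markers Vim, Cd44 and Sox9, and the keratins Krt19 and Krt20. Every array probe whose RefSeq accession carried one of these symbols was taken, which gave 15 probes for 9 of the 10 genes, out of 15284 genes named in this way. No probe carried Sox9, so that gene is not analysed here. Of the 9 genes, 8 were tested with 11 probes. Krt20 and 3 probes of Cd44 were not well above background on all 3 arrays of any group and stayed outside the tests.

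The animals were male Sprague-Dawley rats of the Crl:CD(SD) stock, 5 weeks old at purchase. Treated rats received BDCM at 200 mg/kg per day for 4 weeks, and control rats received corn oil over the same time. Animals were killed 24 h after their final dose, in one experiment under CO2-O2 and in the other under isoflurane. This gave 4 groups of 3 animals, with 1 one-colour Agilent array per animal: BDCM with CO2-O2, oil with CO2-O2, BDCM with isoflurane and oil with isoflurane. Anaesthesia, experiment, array slide and scan day go together across the experiments and cannot be told apart. The signal of a probe is its processed intensity divided by the 75th percentile of its array, on the log2 scale, so that 0 is the 75th percentile and 1 unit is a doubling of signal. Between 67.4% and 72.5% of probes per array were well above background, and the 3 arrays per group limit the precision.

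Injured proximal tubule cells lose their brush border and their transport genes, and the surviving cells spread, divide and take on genes that the resting tubule keeps low. Havcr1 (kidney injury molecule 1) is a receptor for phosphatidylserine with which such cells take up dead neighbours, and its shed part is used as a urinary marker of tubular injury in rats. Spp1 encodes osteopontin, a secreted phosphoprotein that binds integrins and Cd44, and Gpnmb encodes a glycoprotein of endosomes and lysosomes found in macrophages and in injured tubule cells. Lcn2 (lipocalin 2, NGAL) binds iron-carrying siderophores, and Clu (clusterin) is a secreted chaperone.

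Under BDCM, Havcr1, Spp1 and Gpnmb were 9.18 to 34.7 times as high as under oil, counting both experiments, while Lcn2 and Clu overlapped between treated and control animals. Cd44 was slightly higher and Vim slightly lower for the mean of both experiments, and Krt19 varied so widely within groups that no difference could be seen. With the adjusted p threshold of 0.05 in limma, 3 of the 8 tested genes passed in the CO2-O2 experiment, all higher, against a background of 19.8% of the 43274 tested probes passing in either direction (9.86% higher, 9.9% lower). In the isoflurane experiment the same count, 3 of 8, stood against 25.9% of probes (13.1% higher, 12.7% lower). For the mean of both experiments 5 of 8 passed, 4 higher and 1 lower, against 38.3% of probes, 17.9% higher and 20.4% lower. The median effect over the 8 genes was 0.47 on the log2 scale in the CO2-O2 experiment, 0.30 with isoflurane and 0.39 for the mean, where the median over all tested probes was -0.04 each time. With 8 genes, these counts say little beyond the single genes, which are described in turn.

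**Figure D1:**
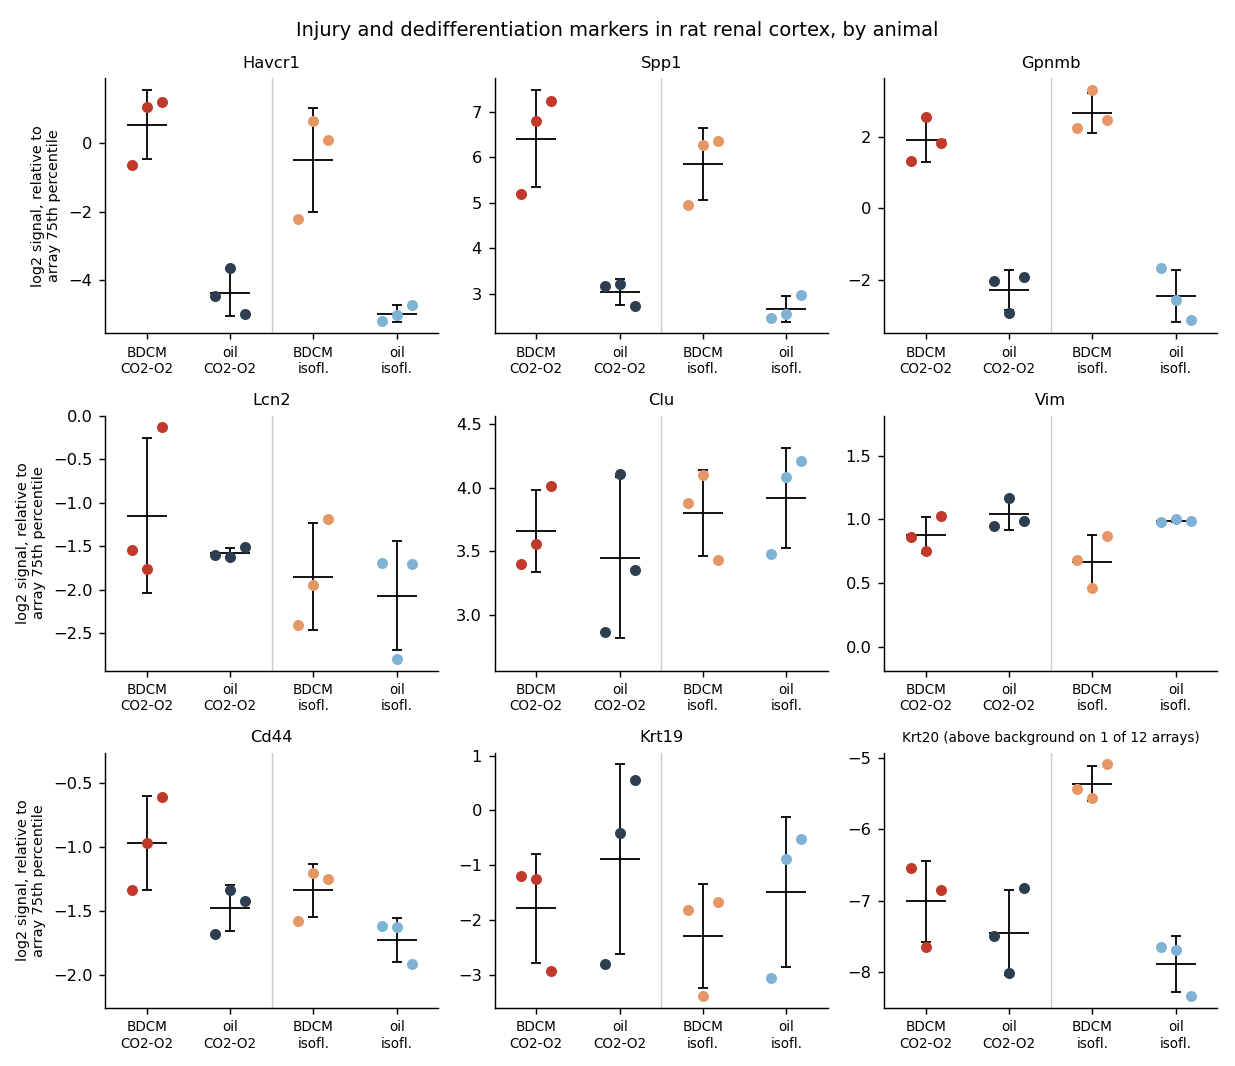
Signal of each gene in each of the 12 animals (log2, relative to the 75th percentile of the array, vertical axes of different range), with BDCM left of oil in each experiment, points for animals 1, 2 and 3 from left to right, and bars for the group mean and SD. All 6 BDCM animals lie above all 6 oil animals for Havcr1, Spp1 and Gpnmb, from -2.22 upward against -3.63 downward for Havcr1, and Krt20 was well above background on 1 of 12 arrays.

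The first genes shown are those with the large differences, and their promoters are printed so that the sequence before each start site can be read beside the values. The stretches are RefSeq promoter sequences of build GRCr8, 250 bases before to 50 bases after the start site, and 7 of the 10 genes had an entry. Havcr1 lies at chr10:31629528-31629827 on the plus strand, Spp1 at chr14:5619755-5620054 on the minus strand and Gpnmb at chr4:79340878-79341177 on the plus strand. Capitals mark matches to 5 motifs searched on both strands.
Havcr1: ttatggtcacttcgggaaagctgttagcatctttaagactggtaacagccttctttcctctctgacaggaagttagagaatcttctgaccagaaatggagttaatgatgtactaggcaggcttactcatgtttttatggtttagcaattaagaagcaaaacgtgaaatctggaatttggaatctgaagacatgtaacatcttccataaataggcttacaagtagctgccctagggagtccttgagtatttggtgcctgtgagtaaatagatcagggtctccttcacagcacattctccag
Spp1: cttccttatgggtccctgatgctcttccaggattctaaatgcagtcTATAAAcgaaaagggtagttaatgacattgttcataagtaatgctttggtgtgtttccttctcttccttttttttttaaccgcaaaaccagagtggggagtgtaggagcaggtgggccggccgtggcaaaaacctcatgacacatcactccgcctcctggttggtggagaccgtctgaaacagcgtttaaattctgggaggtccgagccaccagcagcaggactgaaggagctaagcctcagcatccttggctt
Gpnmb: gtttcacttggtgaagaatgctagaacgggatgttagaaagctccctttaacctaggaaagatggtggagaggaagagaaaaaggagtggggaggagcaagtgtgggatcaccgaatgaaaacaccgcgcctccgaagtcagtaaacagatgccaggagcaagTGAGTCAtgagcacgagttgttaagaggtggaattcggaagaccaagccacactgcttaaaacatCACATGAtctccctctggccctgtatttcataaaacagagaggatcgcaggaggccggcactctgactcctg
The motifs were TGANTCA (AP-1), TCATGTG (the M-box bound by Mitf and its relatives), CACGTG (an E-box), TTCNNNGAA (a STAT element) and TATAAA (the TATA box). In the Gpnmb window an AP-1 match, TGAGTCA, begins 87 bases before the start site, and an M-box match on the other strand, CACATGA, begins 22 bases before it. Of 33469 promoters in the table, 7.33% held TGANTCA and 3.56% held TCATGTG. The Spp1 window holds TATAAA beginning 204 bases before the start site, a motif found in 14.2% of promoters, and the Havcr1 window holds no match to these 5 motifs. CACGTG stood in 6.42% of promoters, TTCNNNGAA in 8.87%, and neither in any of the 7 windows.

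Havcr1 was measured with 1 probe, well above background on all 12 arrays. In BDCM animals 1, 2 and 3 its log2 signal was -0.63, 1.04 and 1.20 with CO2-O2, against -4.47, -3.63 and -4.98 in the oil animals. Under isoflurane the BDCM animals had -2.22, 0.64 and 0.09, against -5.19, -5.01 and -4.71 in oil animals. Every BDCM animal was above every oil animal in both experiments, and BDCM animal 1 was the lowest treated animal in each. The BDCM effect was 4.90 ± 0.71 on the log2 scale with CO2-O2 (SE, n = 3 per group; limma adjusted p = 0.00125), a 29.8-fold difference with a 95% confidence interval of 9.91 to 89.4. With isoflurane it was 4.47 ± 0.71 (22.2-fold, interval 7.40 to 66.8; limma adjusted p = 0.00159). For the mean of both experiments, 25.7-fold (limma adjusted p = 7.09e-05), Havcr1 stood at rank 8 of 12207 named genes by effect. The size of this effect depends on how background is handled. It was 4.69 on the log2 scale here and 3.45 with another background correction (normexp, offset 50). In a piece of whole cortex, fewer cells of a type and less RNA per cell cannot be told apart, nor can more cells that carry a transcript and more RNA in each.

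Spp1 was high in every animal and higher still under BDCM. Its log2 signal was 5.20, 6.80 and 7.23 in BDCM animals 1, 2 and 3 with CO2-O2, against 3.18, 3.22 and 2.73 in oil animals. In the isoflurane experiment it was 4.95, 6.27 and 6.36 in BDCM animals, against 2.46, 2.55 and 2.98 in oil animals. The groups did not overlap, and animal 1 was again the lowest of the treated animals in both experiments. The BDCM effect was 3.37 ± 0.51 on the log2 scale with CO2-O2 (10.3-fold, interval 4.72 to 22.5; limma adjusted p = 0.00153) and 3.20 ± 0.51 with isoflurane (9.18-fold, interval 4.21 to 20.0; limma adjusted p = 0.00152). By the mean of both effects, 3.28 ± 0.36, Spp1 stood at rank 34 of the named genes.

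Gpnmb differed by as much as Havcr1, with less spread among the treated animals. Its log2 signal was 1.33, 2.55 and 1.82 in BDCM animals 1, 2 and 3 with CO2-O2, against -2.03, -2.93 and -1.92 in oil animals. With isoflurane it was 2.25, 3.30 and 2.45 in BDCM animals, against -1.68, -2.56 and -3.11 in oil animals. No treated animal came near a control, and the range among treated animals was 1.22 and 1.05 log2 units in the CO2-O2 and isoflurane experiments, where that of Havcr1 was 1.82 and 2.86. The BDCM effect was 4.19 ± 0.45 with CO2-O2 (18.3-fold, interval 9.14 to 36.6; limma adjusted p = 0.000237) and 5.12 ± 0.45 with isoflurane (34.7-fold, interval 17.3 to 69.4; limma adjusted p = 3.56e-05). For the mean of both experiments Gpnmb was 25.2-fold higher (interval 15.4 to 41.1; limma adjusted p = 3.28e-06), at rank 9 of the named genes.

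Because slide and scan day differ within experiments too, the effects were read again inside single slides and scan days. On slide 1, with 1 BDCM animal and 3 oil animals of the CO2-O2 experiment, the log2 difference was 5.40 for Havcr1, 3.76 for Spp1 and 4.85 for Gpnmb. On slide 4, with 2 BDCM animals and 1 oil animal of the isoflurane experiment, it was 3.92 for Havcr1, 2.63 for Spp1 and 5.89 for Gpnmb. On the third scan day, with 2 BDCM animals and 3 oil animals under isoflurane, it was 4.18, 2.95 and 5.22 for the same genes. All 3 genes were thus higher under BDCM within each of these batches. With slide as a fixed block the isoflurane effects of Havcr1 and Spp1 no longer passed (limma adjusted p = 0.0953 and 0.0988), and in that fit the isoflurane effect rests on 1 control animal.

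Lcn2 and Clu, which rise in many forms of acute kidney injury, did not pass the test in either experiment. The log2 signal of Lcn2 was -1.55, -1.76 and -0.13 in BDCM animals with CO2-O2, against -1.60, -1.63 and -1.51 in oil animals, so that 1 of the 3 treated animals stood above the controls. The isoflurane values were -2.41, -1.95 and -1.19 in BDCM animals, against -1.70, -2.80 and -1.71 in oil animals. The groups overlapped in both experiments. The mean BDCM effect on Lcn2 was 0.32 ± 0.32 (limma adjusted p = 0.46), with a fold interval of 0.761 to 2.06. Larger rises, such as those of the first 3 genes, lie outside that interval.

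Clu had 2 probes that gave nearly the same values. By the brighter probe its log2 signal was 3.40, 3.56 and 4.01 in BDCM animals with CO2-O2, against 2.87, 4.11 and 3.35 in oil animals. With isoflurane it was 3.88, 4.10 and 3.43 in BDCM animals, against 3.48, 4.08 and 4.21 in oil animals. Treated and control animals were mixed throughout. The mean BDCM effect was 0.04 ± 0.23 by this probe (limma adjusted p = 0.895, fold interval 0.727 to 1.46) and 0.06 ± 0.22 by the other (limma adjusted p = 0.859).

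**Figure D2:**
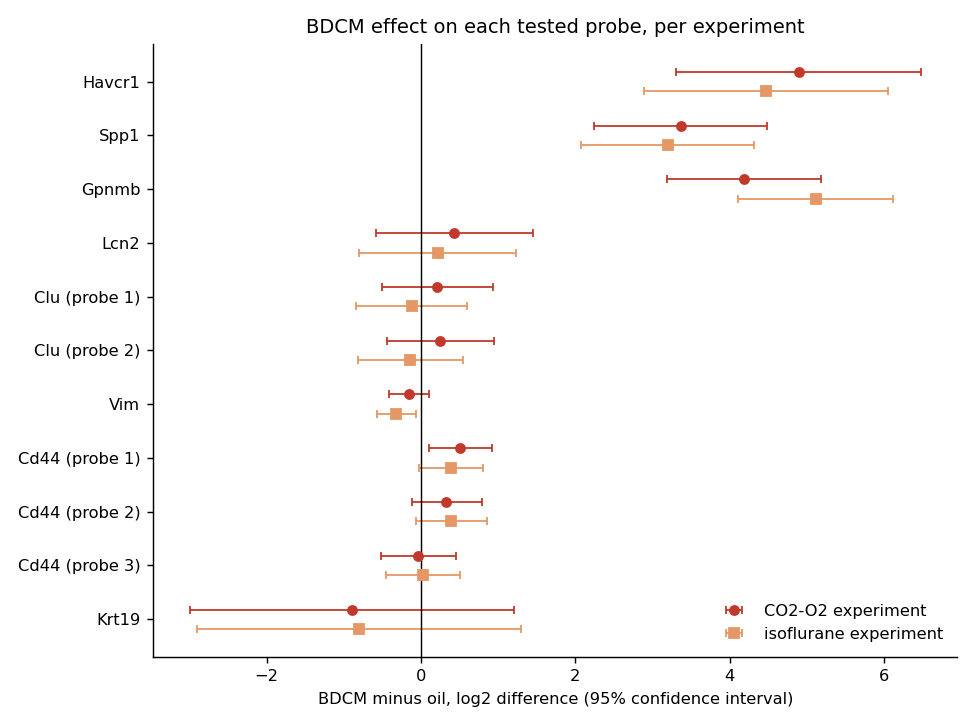
BDCM minus oil for each of the 11 tested probes (log2 difference, horizontal axis) with its 95% confidence interval, circles for the CO2-O2 and squares for the isoflurane experiment. Havcr1, Spp1 and Gpnmb lie between 3.20 and 5.12 with intervals clear of 0, and the intervals of Lcn2, Clu and Krt19 include 0 in both experiments.

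Vim and Cd44 stand for the change of shape and adhesion in dedifferentiated tubule cells. Vim encodes vimentin, an intermediate filament protein that the healthy cortex carries in vessels, glomeruli and interstitial cells. Its log2 signal was 0.86, 0.75 and 1.03 in BDCM animals with CO2-O2, against 0.95, 1.17 and 0.99 in oil animals. Under isoflurane it was 0.68, 0.46 and 0.87 in BDCM animals, against 0.98, 1.00 and 0.99 in oil animals. Only in the isoflurane experiment did all treated animals lie below all controls. The effect was -0.15 ± 0.11 with CO2-O2 (limma adjusted p = 0.378) and -0.32 ± 0.11 with isoflurane (limma adjusted p = 0.0664). Their mean, -0.24 ± 0.08 or 0.849 times the oil level, passed narrowly (limma adjusted p = 0.0417). The call was lost with several alternatives, among them median scaling (limma adjusted p = 0.0553), and in turn without each of 9 of the 12 animals. The summed signal of the fibroblast and mural cell markers moved the same way, at 30.8 to 36.9 in BDCM and 35.3 to 41.5 in oil animals with CO2-O2, and 20.0 to 27.8 in BDCM and 33.6 to 44.2 in oil animals with isoflurane. In that list, 7 of 12 tested genes fell and 0 rose for the mean of both experiments, against 20.4% of all tested probes lower and 17.9% higher. The list had 0 that fell with CO2-O2 and 8 with isoflurane, against 9.9% and 12.7% of all tested probes lower. For the mean, 4 fell without the isoflurane animals of highest albumin signal (BDCM animal 1 and oil animal 3). The part of these marker genes in the Vim difference was not tested.

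Cd44 encodes a receptor for hyaluronan and osteopontin. By its brightest probe the log2 signal was -1.34, -0.97 and -0.61 in BDCM animals with CO2-O2, against -1.68, -1.34 and -1.42 in oil animals. With isoflurane it was -1.58, -1.20 and -1.25 in BDCM animals, against -1.62, -1.63 and -1.92 in oil animals. Treated animals were above controls in both experiments, but the lowest treated animal, animal 1 in each, all but touched the highest control. The effect was 0.51 ± 0.19 with CO2-O2 (limma adjusted p = 0.0797) and 0.39 ± 0.19 with isoflurane (limma adjusted p = 0.155). The mean, 0.45 ± 0.13 or 1.37-fold, passed (limma adjusted p = 0.0211). The other tested probes of Cd44 gave 0.36 ± 0.14 (limma adjusted p = 0.0706) and -0.01 ± 0.15 (limma adjusted p = 0.98) for the mean, so the probes disagree. Averaging the probes of the gene ended the call (limma adjusted p = 0.0752), as did leaving out oil animal 1 with CO2-O2 (0.0507), or oil animal 3 (0.0508) or BDCM animal 2 (0.0509) with isoflurane, by the same test. A fixed block for slide gave 0.53 and one for scan day 0.43, and both ended the call (limma adjusted p = 0.112 and 0.108). The 3 remaining probes were well above background on 0, 0 and 1 of the 12 arrays.

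The keratins are filament proteins of epithelia, and Krt19 and Krt20 mark simple epithelia and, in injured kidney, damaged tubule cells. The log2 signal of Krt19 was -1.19, -1.26 and -2.94 in BDCM animals with CO2-O2, against -2.81, -0.42 and 0.55 in oil animals. Under isoflurane, Krt19 was at -1.81, -3.39 and -1.68 in BDCM animals, against -3.05, -0.89 and -0.53 in oil animals. The oil animals with CO2-O2 alone spanned more than 3 log2 units, and in both experiments 2 oil animals were above all BDCM animals while oil animal 1 was low. The mean BDCM effect was -0.85 ± 0.67 (limma adjusted p = 0.342), and the interval in fold, 0.198 to 1.55, leaves a wide range of differences possible.

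Krt20 was well above background on 1 array, from a BDCM animal under isoflurane. Its log2 signal was -5.43, -5.56 and -5.09 in BDCM animals with isoflurane, against -7.65, -7.70 and -8.34 in oil animals. With CO2-O2 it was -6.54, -7.65 and -6.85 in BDCM animals, against -7.50, -8.02 and -6.82 in oil animals. The treated animals stood above the controls with isoflurane and overlapped with them with CO2-O2. The lowest signal of any probe well above background was between -6.62 and -5.63, depending on the array. All oil animals lay below that limit, at -6.82 or lower, and the BDCM animals with isoflurane lay just above it. With isoflurane, 1 of 3 BDCM arrays and 0 of 3 oil arrays were well above background for this probe, and no fold is given. When no probe was left out for low signal, the isoflurane effect of Krt20 was 2.53 ± 0.36 (limma adjusted p = 0.00139), a value measured at background level on most arrays.

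The experiments were also compared with each other. The test of the difference between the isoflurane and CO2-O2 BDCM effects passed for 0 of the 8 genes and for 0% of all probes in limma, with 2125 probes at an unadjusted p under 0.05. That difference was 0.92 ± 0.64 on the log2 scale for Gpnmb, with an interval of -0.49 to 2.34, -0.42 ± 1.01 for Havcr1, with an interval of -2.66 to 1.82, and -0.17 ± 0.72 for Spp1, with an interval of -1.76 to 1.42. At 3 animals per group the intervals therefore still hold differences of several fold. Between the oil groups, isoflurane minus CO2-O2, 0 of 8 genes passed in limma (0 at an unadjusted p under 0.05) against 10.6% of probes (6.96% higher, 3.63% lower). Between the BDCM groups, 0 of 8 passed (0 at an unadjusted p under 0.05) against 16.4% of probes (11.1% higher, 5.23% lower). The largest of these was the lower Havcr1 in BDCM animals with isoflurane, at -1.03 ± 0.71 (limma adjusted p = 0.348).

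One treated animal per experiment stood lowest in several genes. Animal 1 was the lowest of the 3 BDCM animals for Havcr1, Spp1, Gpnmb and Cd44 in both experiments (animal 1 of one experiment and animal 1 of the other are different rats). Animals 2 and 3 had no common order: with CO2-O2 the highest was animal 3 for Havcr1, Spp1 and Cd44 and animal 2 for Gpnmb, and with isoflurane animal 2 for Havcr1, Gpnmb and Cd44 and animal 3 for Spp1. After the group means were taken out, Pearson's r between Havcr1 and Spp1 over the 12 animals was 0.90 (Spearman's rho 0.88), and 0.79 without the 2 animals farthest from the median Havcr1 residual, which are both animals numbered 1. The same r was 0.68 between Havcr1 and Cd44 (rho 0.75), and 0.37 without those animals. Between Havcr1 and Gpnmb it was 0.25 (rho 0.04), and -0.19 without them. These are descriptions of 12 animals that share slides and scan days within experiments, and 36 pairs of the 9 genes were looked at.

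**Figure D3:**
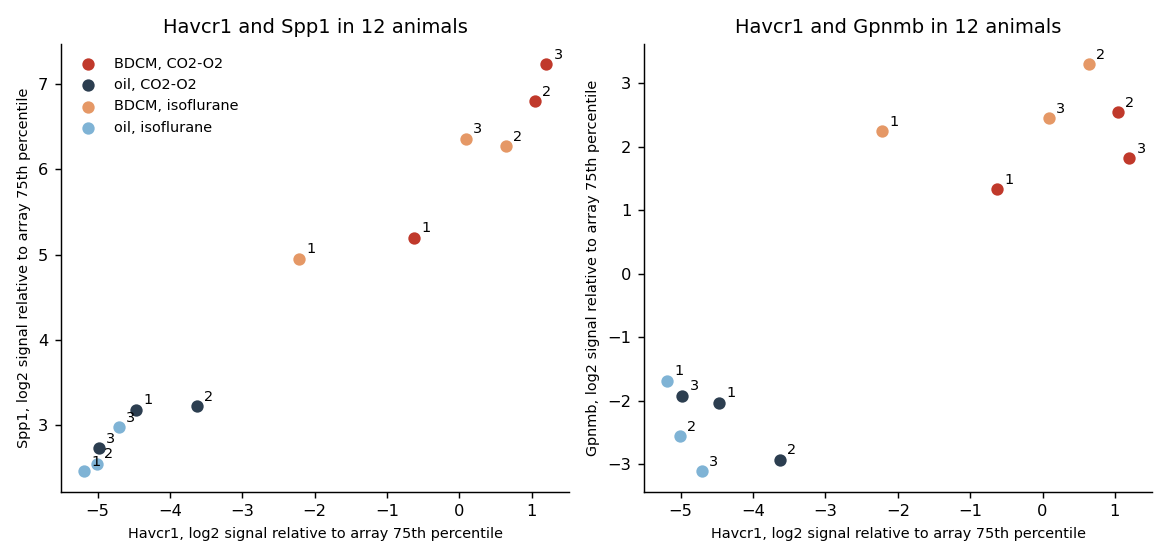
Spp1 (left) and Gpnmb (right) against Havcr1 in the 12 animals (log2 signal relative to the array 75th percentile on both axes), with animal numbers beside the points. BDCM and oil animals form separate clusters, and within the BDCM animals Spp1 runs with Havcr1 from 4.95 at a Havcr1 signal of -2.22 to 7.23 at 1.20, which Gpnmb does less closely.

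The proximal tubule markers were highest in that same treated animal. Their summed signal, in units of the array 75th percentile, was 3030, 2320 and 2330 in BDCM animals 1, 2 and 3 with CO2-O2, against 3550, 3780 and 3920 in oil animals. The sum of 1 of these oil animals lacks Slc13a3, left out on that array as an outlier, and is therefore too low. The isoflurane sums were 2660, 1920 and 2400 in BDCM animals, against 3850, 4100 and 4070 in oil animals. The treated animal with the lowest Havcr1 thus had the highest proximal tubule sum in both experiments. BDCM animal 1 with isoflurane also had a log2 albumin (Alb) signal of -0.69, where the other isoflurane animals lay between -8.07 and -2.97 and the CO2-O2 animals between -1.44 and 1.66. Without that animal and oil animal 3 of the same experiment, the isoflurane animal with the next highest albumin, Havcr1, Spp1 and Gpnmb passed in both experiments. Whether liver transcripts bear on the place of animal 1 was not tested.

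Some genes outside the marker set ran very close to Havcr1. Over all 12 animals, where BDCM and oil form separate clusters, the 5 highest Pearson's r among 12186 named genes were those of Hyou1 (0.992), Mdm1 (0.989), Derl3 (0.982), Sec11c (0.982) and Dctpp1 (0.982). Their mean BDCM effects ran from 0.86 for Sec11c to 4.02 for Derl3 on the log2 scale. After the group means were taken out, the 5 highest were Nudt1 (0.974), RT1-M3-1 (0.970), Hyou1 (0.965), Trib3 (0.955) and Dnajb9 (0.948). Without the 2 animals named above, these were 0.92, 0.91, 0.89, 0.86 and 0.84 in the same order. The genes were picked as the highest over these same animals, so the second values are no independent check. Hyou1, a chaperone of the endoplasmic reticulum, is on both lists. Its log2 signal was 3.77, 4.20 and 4.36 in BDCM animals with CO2-O2, against 3.06, 3.14 and 3.01 in oil animals, and 3.37, 4.15 and 3.98 in BDCM animals with isoflurane, against 2.82, 2.83 and 2.97 in oil animals. Animal 1 is the lowest treated animal, and the mean BDCM effect of Hyou1 was 1.00 (limma adjusted p = 0.000399). Hyou1 was picked for following Havcr1 over these same animals, so neither its order of animals nor its effect is a separate observation. RT1-M3-1 follows Havcr1 within groups without a mean BDCM effect past the threshold, at 0.41 (limma adjusted p = 0.234).

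The binding partners of the marker proteins did not rise as a group. Of 30 listed ligands, receptors and partners, 23 were tested, and for the mean of both experiments 1 rose, 6 fell and 16 did not pass, with a median effect of -0.08. Over all tested probes 38.3% passed, 17.9% higher and 20.4% lower. The receptor of Lcn2, Slc22a17, had a mean BDCM effect of -0.81 ± 0.08 (limma adjusted p = 4.38e-05). Megalin (Lrp2), the endocytic receptor that takes up Lcn2 in the proximal tubule, fell by 0.64 ± 0.09 (limma adjusted p = 0.000498), and it is named after its value was seen. Cd74, which signals for Mif together with Cd44 and is the invariant chain of antigen presentation, fell by 1.05 ± 0.18 (limma adjusted p = 0.00144). Itga8, an integrin chain that binds osteopontin, was at -0.64 ± 0.12 by its brighter probe (limma adjusted p = 0.00272), where its other probe gave 0.11. The partner that rose was Vldlr, a lipoprotein receptor that binds clusterin, by 0.48 ± 0.10 (limma adjusted p = 0.00471). With CO2-O2 alone, Cd74, Itga8 and Vldlr did not pass (limma adjusted p = 0.0935, 0.19 and 0.0753).

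The factors that bind the M-box printed for Gpnmb were looked up after their values were seen. Mitf had a mean BDCM effect of -0.15 ± 0.06 on the log2 scale (limma adjusted p = 0.0699), Tfec of -0.10 ± 0.12 (0.536) and Tfeb of -0.01 ± 0.05 (0.876, same test). None of these transcripts passed the test, and transcript level says nothing about where such proteins sit in the cell.

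Other injury markers of the kidney, 30 of 31 listed being tested, were split, with 11 that rose, 8 that fell and 11 that did not pass for the mean of both experiments (median effect -0.06). Over all tested probes, 17.9% were higher and 20.4% lower for that mean. With CO2-O2 8 rose and 1 fell, against 9.86% of all tested probes higher and 9.9% lower. With isoflurane 4 rose and 6 fell, against 13.1% higher and 12.7% lower. The contrast between the experiments was not tested for the list. The highest were Fgb, the fibrinogen beta chain, at 2.44 ± 0.43 (limma adjusted p = 0.00164), Tnfrsf12a, the TWEAK receptor of injured tubules, at 2.22 ± 0.23 (limma adjusted p = 5.52e-05), and the neutrophil-attracting chemokine Cxcl1 at 1.66 ± 0.43 (limma adjusted p = 0.0118). Tnfrsf12a was 2.37, 3.16 and 3.03 on the log2 scale in BDCM animals with CO2-O2, against 1.54, 0.72 and 0.67 in oil animals, and 2.48, 3.66 and 3.07 in BDCM animals with isoflurane, against 0.54, 0.65 and 0.33 in oil animals. The groups did not overlap, and animal 1 was the lowest treated animal again. The lowest were the trefoil peptide Tff3 at -1.58 ± 0.34 (limma adjusted p = 0.00499), Igfbp7 at -0.56 ± 0.08 and the growth hormone receptor Ghr at -0.54 ± 0.12. The other fibrinogen chains, Fga and Fgg, were each at 0.77 for the mean (limma adjusted p = 0.0354 and 0.331). Fga passed in neither experiment alone (limma adjusted p = 0.104 with CO2-O2 and 0.225 with isoflurane). Fibrinogen is also a liver product, and of 13 tested liver transcripts 2 rose and 3 fell, near the 38.3% of all tested probes that passed.

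Other genes of dedifferentiation and of progenitor cells were mostly not higher under BDCM. Of 23 tested, 1 rose, 8 fell and 14 did not pass for the mean of both experiments (median effect -0.25). The share that passed in either direction was near the 38.3% of all tested probes (17.9% higher, 20.4% lower). Aldh1a2, an enzyme that makes retinoic acid, rose by 0.92 ± 0.20 (limma adjusted p = 0.0052). Prom1, a membrane protein of progenitor cells and of tubule brush borders, fell by 1.04 ± 0.16 (limma adjusted p = 0.000846). With CO2-O2 alone Prom1 did not pass (limma adjusted p = 0.0943). Wt1, a podocyte transcription factor in the adult kidney, fell by 0.59 ± 0.10. The epithelial cadherin Cdh1 fell by 0.57 ± 0.09 (limma adjusted p = 0.000641). Among 11 other keratins tested, 2 rose, 3 fell and 6 did not pass, near the shares over all tested probes. Krt23 rose by 0.96 ± 0.30 (limma adjusted p = 0.0302) and Krt18, a filament protein of simple epithelia, by 0.38 ± 0.08 (limma adjusted p = 0.00363). Krt23 passed in neither experiment alone (limma adjusted p = 0.0993 with CO2-O2 and 0.194 with isoflurane). Krt7, found in collecting duct and urothelium, fell by 1.16 ± 0.11 (limma adjusted p = 2.17e-05), Krt5 by 0.57 ± 0.12 and Krt80 by 0.52 ± 0.09.

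**Figure D4:**
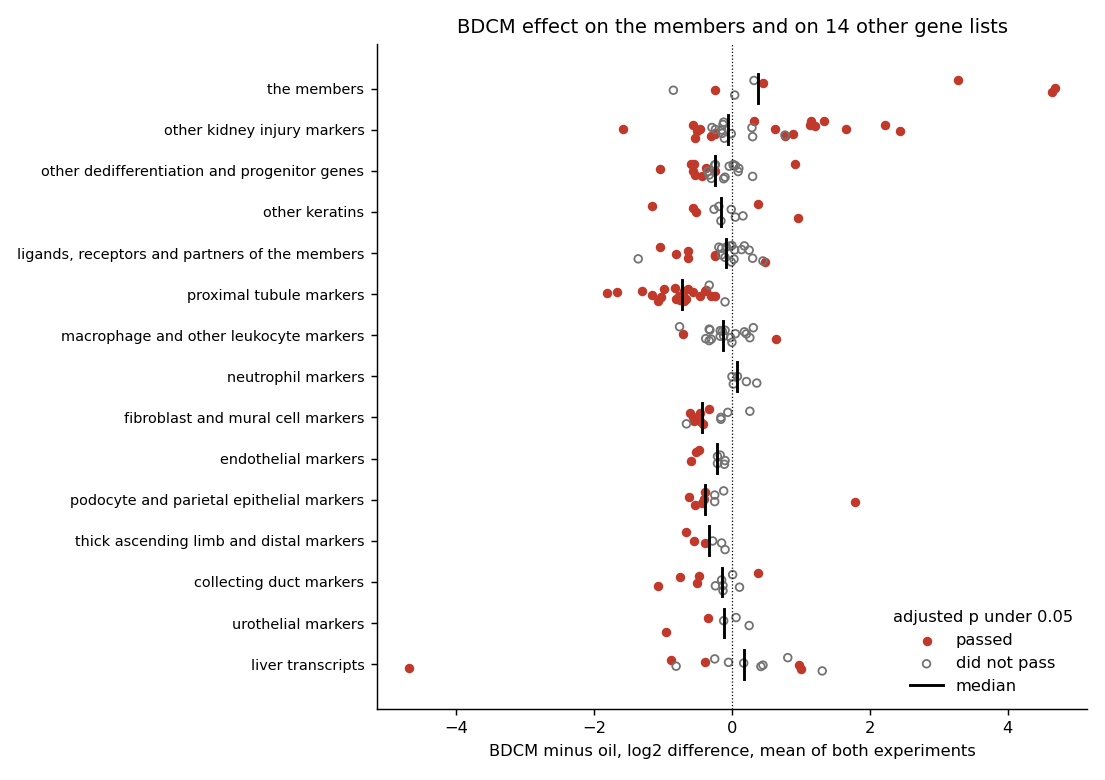
Mean BDCM effect over both experiments (BDCM minus oil, log2 difference, horizontal axis) for each tested member and for the tested genes of 14 other lists, filled where the adjusted p was under 0.05, with a bar at each median. Of the members 5 of 8 passed, and of the proximal tubule markers 22 of 24 passed, all lower, around a median of -0.73. Over all tested probes 38.3% passed.

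The label of the tissue was checked against markers of its cells. Proximal tubule markers were well expressed, and 22 of 24 fell under BDCM, 0 rose and 2 did not pass (median -0.73). Over all tested probes 38.3% passed, 17.9% higher and 20.4% lower. Slc7a13, an amino acid transporter of the last proximal segment, fell by 1.81 ± 0.36, the organic cation transporter Slc22a2 by 1.67 ± 0.25 and the water channel Aqp1 by 1.31 ± 0.21. Since Gpnmb, Spp1 and Cd44 are also expressed by macrophages, leukocyte markers matter beside them. Of 20 tested, 1 rose (Cd14, by 0.64 ± 0.17), 1 fell (Cd2, by 0.71 ± 0.23) and 18 did not pass, with a median of -0.13. A smaller share thus passed than over all tested probes. The summed signal of the leukocyte markers was 109 to 163 in BDCM and 118 to 143 in oil animals with CO2-O2. With isoflurane it was 97.2 to 123 in BDCM and 93.2 to 132 in oil animals, so the groups overlapped. Lyz2 makes up most of that sum, with group means of 6.30 to 6.56 on the log2 scale. The other tested leukocyte markers lay at 3.51 or lower, so the sum is mainly a reading of 1 gene. The macrophage markers Cd68 and Adgre1 had mean effects of 0.05 ± 0.15 and -0.33 ± 0.25 (limma adjusted p = 0.798 and 0.336). Cd163, a scavenger receptor of resident macrophages, was not well above background on all arrays of any group. Neutrophils carry Lcn2 protein, and the 5 neutrophil markers tested had a median effect of 0.08, where S100a8 and S100a9 had mean effects of 0.08 and 0.02 (limma adjusted p = 0.883 and 0.967). Cd68, Adgre1, Cd163, S100a8 and S100a9 are named as defining markers of these cells, after their values were seen. Urothelial markers, which would show pelvis tissue beside Krt19 and Krt20, had a summed signal of 5.94 to 6.70 in BDCM and 7.23 to 7.48 in oil animals with CO2-O2. With isoflurane the sums were 5.14 to 6.05 in BDCM and 6.98 to 8.46 in oil animals. Most of this sum is Tp63, with group means of 2.35 to 2.86 on the log2 scale, where the other tested genes lay at -2.12 or lower. Of 5 tested, 2 fell (Tp63 and Shh) and 0 rose, where 38.3% of all tested probes passed in either direction and 20.4% were lower. Shh passed in neither experiment alone (limma adjusted p = 0.0764 with CO2-O2 and 0.332 with isoflurane). Upk1a, Upk1b and Upk3a did not pass, at 0.06, -0.12 and 0.25 (limma adjusted p = 0.824, 0.562 and 0.495). Collecting duct markers, beside Krt19, summed to 210 to 251 in BDCM and 256 to 279 in oil animals with CO2-O2, and 181 to 250 in BDCM and 255 to 276 in oil animals with isoflurane. Their part in the Krt19 values was not tested.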

How the data were processed

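Per the file headers, the deposited intensity of each spot comes from Agilent Feature Extraction 10.7.1.1, as 1 background-subtracted processed signal per spot, with flags for outlier and background spots. The deposited value table holds a ratio, each processed signal over the 75th percentile of its array, not centred. Its isoflurane columns match their own scanner files. Each CO2-O2 column matches the scanner file of a different animal in its group (over 61573 probes), so animals are numbered by scanner file.

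Outlier spots were left out (115 missing values over 12 arrays), as were controls and 84 spike-in probes. Spots of a probe were averaged. Signals were divided by the 75th percentile of the array, taken as log2, and fitted per probe with limma 3.58.1 in R 4.3.3, with 1 mean per group over all 12 arrays and Benjamini-Hochberg adjustment over 43274 probes (those well above background on every array of 1 or more groups). A gene stands by its probe with the highest mean signal. RefSeq accessions named 27460 of 33356 probes through a table of assembly GRCr8. Figures were drawn with matplotlib in Python. The steps were tested on simulated data.

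The members and lists were chosen with earlier results of these data known. Genes named are the members, up to 3 highest and 3 lowest of each list among those that passed, and the 5 most like Havcr1 by each of 2 measures. Replicate numbers come from the sample titles and name different animals.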

Additional observations from a re-analysis of the deposited data

How the results depend on the processing

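Havcr1, Spp1 and Gpnmb stayed higher under BDCM, past the threshold, in every alternative run, except the isoflurane effects of Havcr1 and Spp1 with slide as a fixed block. The mean effect of Havcr1 ran from 3.45 to 5.18 on the log2 scale, that of Spp1 from 3.08 to 3.59 and that of Gpnmb from 4.15 to 5.37. The lowest Havcr1 value came with normexp background correction (offset 50). It lies below the 95% confidence interval of the main fit, 3.56 to 5.81. The mean effect of Vim ran from -0.35 to -0.18 and that of Cd44 from 0.27 to 0.54, with calls lost as given. A replicate block (the numbers name different animals, and residuals of same-numbered animals correlated between -0.03 and 0.061) kept 3 members in each experiment and 4 for the mean, where Vim was lost (limma adjusted p = 0.091). With slide as a fixed block, 3819 probes passed with CO2-O2, 3250 probes and 1 member with isoflurane, 10388 for the mean and 16 for the difference of effects. With scan day as a fixed block, 4967 passed with CO2-O2 and 25 for the difference. Array weights gave 8128 for the oil groups. Quantile normalization gave 1 for the difference. Without a filter, 4626 probes and 1 member (Krt20) passed between the BDCM groups, where the groups alone gave 824. At 0.01, counts were 3483 (CO2-O2), 5261 (isoflurane), 10260 and 3 members (mean), 1253 (oil groups) and 1999 (BDCM groups). At 2-fold they were 1592, 2720, 2278 and 3 members, 503 and 611. Leaving out each animal gave 4830 to 9799 (CO2-O2), 6849 to 11483 (isoflurane), 0 to 1 (difference), 1844 to 5102 (oil groups), 4249 to 6289 (BDCM groups) and 3 to 5 members (mean, 3 without oil animal 3 or BDCM animal 2 with isoflurane). Leaving out both isoflurane animals with high albumin, chosen after seeing the data, gave 1 for the difference, 2106 for the oil groups and 3543 for the BDCM groups, and left 4 members for the mean, 10 other injury markers higher and 6 lower, 21 proximal tubule markers lower, 4 fibroblast and mural markers lower (of 7), and 1 higher among other keratins (of 2) and among liver transcripts (of 2), 1 lower among urothelial markers (of 2), 2 lower among leukocyte markers (against 1) and 0 higher in collecting duct (against 1). The causes were not tested. Median scaling moved the median of all probes by -0.109 in the oil groups and by less than 0.1 in the other comparisons.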

Other observations

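Counts for further lists of cell markers follow, where 38.3% of all tested probes passed for the mean of both experiments (17.9% higher, 20.4% lower). Endothelial and collecting duct counts lie near that share. Podocyte and parietal epithelial markers gave 1 gene that rose and 5 that fell of 9 tested for the mean of both experiments. The one that rose was claudin 1 (Cldn1), a tight junction protein of parietal cells and injured tubules, by 1.78 ± 0.16 on the log2 scale (limma adjusted p = 1.46e-05). Its log2 signal was 0.86, 1.31 and 1.54 in BDCM animals with CO2-O2, against -0.66, -0.31 and -0.32 in oil animals, and 0.47, 0.95 and 0.44 in BDCM animals with isoflurane, against -1.47, -1.47 and -0.92 in oil animals. The groups did not overlap, and all 3 probes of Cldn1 passed, at 1.62 to 1.90. Plce1, Nes and Podxl of the same list fell by 0.62 ± 0.08, 0.54 ± 0.10 and 0.43 ± 0.10. Of 8 endothelial markers tested 0 rose and 3 fell, among them Tie1 by 0.60 ± 0.09, and of 6 thick ascending limb and distal markers 0 rose and 3 fell, Ptger3 by 0.66 ± 0.09. In the collecting duct list of 11 tested, 1 rose (Slc4a1, 0.38 ± 0.10) and 4 fell, Slc26a4 by 1.07 ± 0.14 and Aqp3 by 0.76 ± 0.14. The fibroblast genes Col1a2, Col3a1 and Col1a1 fell by 0.61 ± 0.12, 0.57 ± 0.17 and 0.55 ± 0.17 for the mean of both experiments. They passed with isoflurane, at -0.96, -0.85 and -0.84 (limma adjusted p = 0.00254, 0.0268 and 0.031). With CO2-O2 none passed, at -0.27, -0.30 and -0.27 (limma adjusted p = 0.284, 0.416 and 0.486).

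The genes whose deviations from the group means ran closest to those of Krt19 were looked up after its wide spread was seen. With group means taken out, Pearson's r with Krt19 over 12 animals was 0.951 for Jam3, 0.906 for Fhip2b and 0.884 for Sfmbt1, the highest of 12186 genes. The log2 signal of Jam3, a junction protein, was -1.01, -0.97 and -1.14 in BDCM animals with CO2-O2, against -1.28, -1.03 and -0.90 in oil animals. With isoflurane it was -1.30, -1.52 and -1.37 in BDCM animals, against -1.39, -1.25 and -1.25 in oil animals. The spread of Jam3 is far smaller than that of Krt19, and its mean BDCM effect was -0.04 (limma adjusted p = 0.741).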
